A study of Mus musculus with 58 samples.

Results

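The 4 Hox gene clusters of the mouse, HoxA, HoxB, HoxC and HoxD, were examined in 9 lists of protein binding sites from embryonic stem cells. A member peak was any deposited peak that overlapped 1 of 4 windows of the mm9 genome build. The windows were chr6:52090000-52225000 for HoxA (135 kb), chr11:96040000-96240000 for HoxB (200 kb), chr15:102740000-102870000 for HoxC (130 kb) and chr2:74490000-74615000 for HoxD (125 kb). They held 228 of the 156215 peaks of the 9 lists. The windows were drawn around 38 Hox genes, of which 10 belong to HoxA, 10 to HoxB, 9 to HoxC and 9 to HoxD.

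Hox genes encode homeodomain transcription factors that specify position along the body axis. Within a cluster the genes are numbered by paralog group, and their order along the chromosome follows the order in which they act from head to tail. In embryonic stem cells the clusters are known as broad domains of Polycomb repression that open step by step during differentiation. PSPC1 is an RNA-binding protein of the nuclear bodies called paraspeckles.

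The binding sites came from chromatin immunoprecipitation followed by sequencing (ChIP-seq), which recovers DNA crosslinked to a tagged protein. All cells were untreated mouse embryonic stem cells of the 129/Ola strain, and each library used 5 µg of an antibody to the FLAG tag. In the knock-in cells (AID-FB(KI)-PSPC1), made from the CJ9 line, the tag stood at PSPC1's own gene. The knock-in group had 2 libraries fixed with 3% formaldehyde, and the labels do not say whether they came from separate cultures. The other 7 groups had 1 library each from J1 cells that carry the biotin ligase BirA and overexpress a tagged protein (FB(OE)): PSPC1, UTP6, UTP3, CIRH1A, hnRNPU, SAFB or SAFB2. Overexpressed PSPC1 was fixed with 1% formaldehyde and the ribosome-assembly factors UTP6, UTP3 and CIRH1A with 3%. The RNA-binding nuclear scaffold proteins hnRNPU, SAFB and SAFB2 were fixed with 2 mM of the protein crosslinker DSP and then 1% formaldehyde, and were purified a second time on streptavidin. Parental line and expression from the own gene or by overexpression therefore cannot be told apart between the knock-in and the other lists. Fixation differed as well for overexpressed PSPC1, hnRNPU, SAFB and SAFB2. UTP6, UTP3 and CIRH1A shared the 3% formaldehyde of the knock-in but are other proteins. The lists held from 6670 peaks (SAFB2) to 40217 (UTP6), and the read depth behind them is unknown.

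The 38 genes fall into 3 sets by paralog group. Groups 1 to 4, which act in the hindbrain and neck, hold 11 of them: Hoxa2, Hoxa3, Hoxa4, Hoxb1, Hoxb2, Hoxb3, Hoxb4, Hoxc4, Hoxd1, Hoxd3 and Hoxd4. Groups 5 to 8, which act in the neck and thorax, also hold 11: Hoxa5, Hoxa6, Hoxa7, Hoxb5, Hoxb6, Hoxb7, Hoxb8, Hoxc5, Hoxc6, Hoxc8 and Hoxd8. Groups 9 to 13, which act in the trunk, tail, limbs and urogenital tract, hold 16: Hoxa9, Hoxa10, Hoxa11, Hoxa13, Hoxb9, Hoxb13, Hoxc9, Hoxc10, Hoxc11, Hoxc12, Hoxc13, Hoxd9, Hoxd10, Hoxd11, Hoxd12 and Hoxd13. In the RefSeq annotation of GRCm38.p6, a later build, HoxA runs from Hoxa2 to Hoxa13 with rising coordinate. HoxB runs from Hoxb13 to Hoxb1, HoxC from Hoxc13 to Hoxc4 and HoxD from Hoxd13 to Hoxd1. Since the peaks lie on mm9, no peak was assigned to a single gene, and values are given by cluster and by position within the window.

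The RefSeq promoter set held 24 promoters of 22 of the 38 genes: 10 of HoxA, 3 of HoxB, 1 of HoxC and 10 of HoxD. The 250 bases before their start sites held a median of 12.5 CpG dinucleotides, with a range of 2 to 35, against a median of 6 over all 32851 promoters of the set. At least 10 CpG stood in 15 of the 24 Hox promoters (62.5%) and in 37.8% of all promoters. The promoter with the most CpG in each cluster and the Hox promoter with the fewest are printed to show this range, 5′ to 3′ on the strand of the gene with each CpG in capitals. They are Hoxa13 (chr6:52260881-52261130, minus strand), Hoxb4 (chr11:96318017-96318266, plus strand), Hoxc4 (chr15:103034145-103034394, plus strand), Hoxd13 (chr2:74667975-74668224, plus strand) and the first listed start of Hoxd11 (chr2:74679308-74679557, plus strand), all from RefSeq on GRCm38.p6. Hoxa13 and Hoxd13 act in digits and the genital bud, Hoxd11 in the forearm, and Hoxb4 and Hoxc4 in the neck.
Hoxa13: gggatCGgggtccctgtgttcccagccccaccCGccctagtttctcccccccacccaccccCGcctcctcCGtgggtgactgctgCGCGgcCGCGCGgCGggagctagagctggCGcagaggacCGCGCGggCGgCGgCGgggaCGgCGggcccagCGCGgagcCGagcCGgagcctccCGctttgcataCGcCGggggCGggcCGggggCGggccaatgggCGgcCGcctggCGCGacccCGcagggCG
Hoxb4: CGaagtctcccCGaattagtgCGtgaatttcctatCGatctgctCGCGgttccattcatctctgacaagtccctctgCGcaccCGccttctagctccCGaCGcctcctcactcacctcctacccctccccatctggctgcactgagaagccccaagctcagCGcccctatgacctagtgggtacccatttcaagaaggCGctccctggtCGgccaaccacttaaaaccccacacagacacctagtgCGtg
Hoxc4: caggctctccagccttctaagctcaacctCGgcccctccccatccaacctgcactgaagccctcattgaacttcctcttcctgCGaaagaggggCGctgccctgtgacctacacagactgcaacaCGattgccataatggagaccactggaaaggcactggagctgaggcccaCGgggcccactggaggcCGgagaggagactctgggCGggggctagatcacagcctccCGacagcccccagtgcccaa
Hoxd13: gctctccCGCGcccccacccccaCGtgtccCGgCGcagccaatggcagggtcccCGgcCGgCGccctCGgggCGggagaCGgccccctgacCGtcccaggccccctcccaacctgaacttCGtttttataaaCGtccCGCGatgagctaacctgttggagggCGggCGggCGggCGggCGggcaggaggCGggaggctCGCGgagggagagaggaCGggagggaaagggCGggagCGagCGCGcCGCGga
Hoxd11: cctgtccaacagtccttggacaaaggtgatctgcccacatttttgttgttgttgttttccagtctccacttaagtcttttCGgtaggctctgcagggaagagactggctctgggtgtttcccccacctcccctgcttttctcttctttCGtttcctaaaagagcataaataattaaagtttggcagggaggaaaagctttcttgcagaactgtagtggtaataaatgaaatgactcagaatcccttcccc
The Hoxa13 promoter held 35 CpG, Hoxd13 held 31, Hoxb4 held 14, Hoxc4 held 8 and Hoxd11 held 2. Of all promoters in the set, 2.97% held at least as many CpG as Hoxa13 and 5.19% at least as many as Hoxd13. The shares were 29.4% for Hoxb4, 43.0% for Hoxc4 and 81.2% for Hoxd11. Hoxc4 was the only HoxC gene with a promoter in the set, so the HoxC value stands for 1 gene. Hoxb4 was the highest of only 3 HoxB genes in the set. CpG reads the same on both strands, and these counts describe the letters and not binding.

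Knock-in PSPC1 covered most of every Hox cluster. HoxA was covered over 86.5% of its base pairs in replicate 1 and 81.6% in replicate 2 (84.1% ± 3.46, SD, n = 2). HoxC was covered over 87.5% and 85.2% (86.3% ± 1.58, SD, n = 2). HoxD was covered over 72.2% and 71.5% (71.8% ± 0.496, SD, n = 2), and HoxB over 59.4% and 57.8% (58.6% ± 1.10, SD, n = 2). HoxA and HoxC were the most covered clusters and HoxB the least in both replicates, and the order of HoxA and HoxC rests on gaps smaller than the replicate difference of HoxA. Over all 4 windows the knock-in peaks covered 433 kb ± 9.54 (SD, n = 2) of 590 kb.

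**Figure D1:**
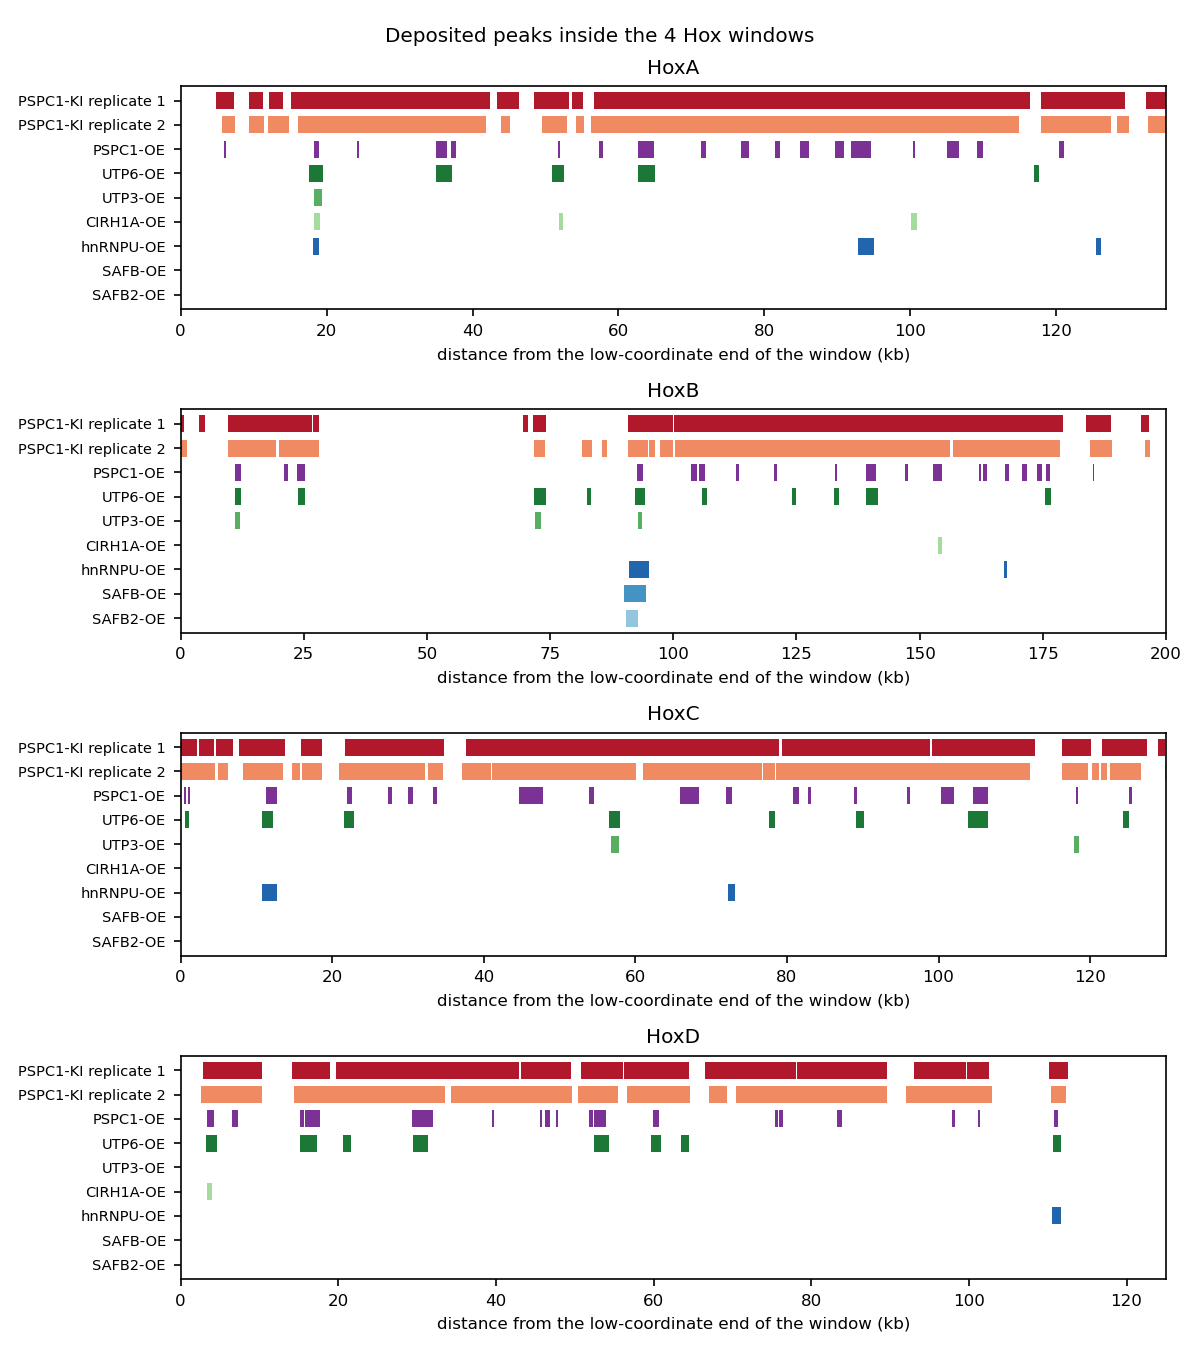
Deposited peaks of the 9 lists (rows) along the 4 Hox windows, in kb from the low-coordinate end of each window, with each bar 1 peak drawn to its deposited width and clipped at the window. The 2 knock-in rows (PSPC1-KI) hold broad peaks broken by 19 stretches of at least 2 kb without a peak in either library, of which the longest are 41.5 kb in HoxB and 12.4 kb in HoxD, while the overexpression rows (OE) hold narrow peaks.

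The flanks did not share this coverage. In the 500 kb on both sides of a window, knock-in peaks covered 2.64% around HoxA, 4.86% around HoxB, 6.27% around HoxC and 0.383% around HoxD (means of 2 libraries). Over the 4 clusters together the window exceeded its flanks 22.6-fold in replicate 1 and 19.1-fold in replicate 2. In the first 20 kb outside the windows, averaged over the 8 ends, the coverage was 10.4% in replicate 1 and 12.0% in replicate 2. The ends differed. Below the Hoxb13 end of HoxB the first 20 kb were covered over 41.6% and 41.9%. Beyond the Hoxa13 end of HoxA the coverage was 20.2% and 22.1% in the first 20 kb, 48.7% and 31.1% in the next and 43.9% and 43.0% from 40 to 60 kb. At the Hoxd1 end of HoxD the last of 10 equal parts of the window was itself covered over 1.03% and 0%, and the first 20 kb outside over 0% in both. Peaks crossing a window end numbered 3 in replicate 1 and 4 in replicate 2, and none did so in the other 7 lists. One of them, at the low end of HoxB, was chr11:96031682-96040782 in replicate 1. The only flank peaks of at least 10 kb lay beyond the Hoxa13 end of HoxA, at chr6:52257958-52269652 in replicate 1 and chr6:52258778-52270184 in replicate 2.

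**Figure D2:**
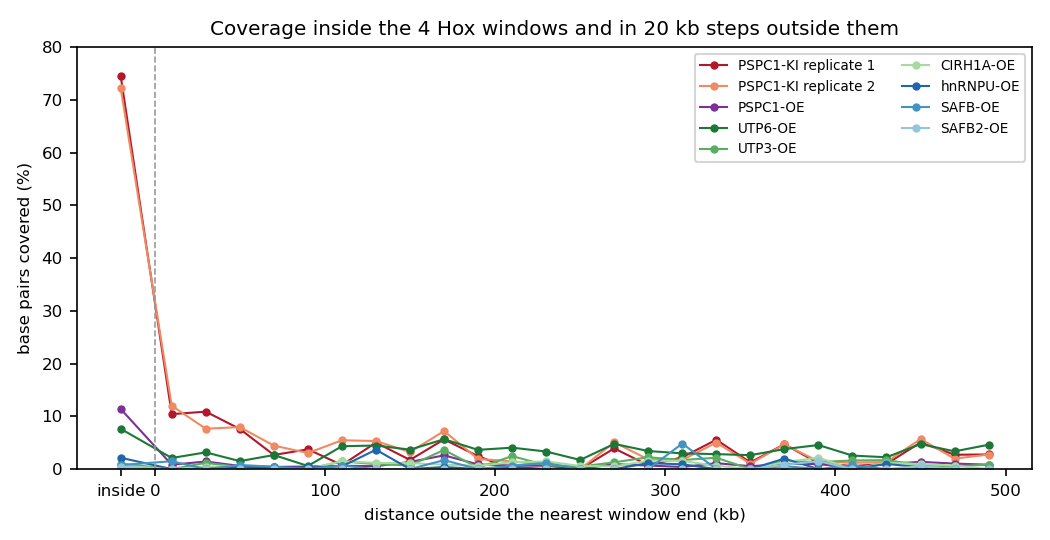
Percentage of base pairs covered by the peaks of each list inside the 4 Hox windows together (leftmost points) and in 20 kb steps outside them, averaged over the 8 window ends. The knock-in lists fall from 74.5% and 72.2% inside to 10.4% and 12.0% in the first step.

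Windows of the same lengths, set every 5 kb over chromosomes 1 to 19 and X, give the level of the rest of the genome. From 526604 positions at the HoxB length to 526964 at the HoxD length were read, and neighbouring positions overlap. No position outside the clusters was covered as much as the Hox window of its length in either knock-in list, a share of 0% for all 8 combinations of cluster and library. The most covered window of the HoxA length reached 64.5% in replicate 1, at chr8:122945001-123080000, and 63.6% in replicate 2, at chr13:12875001-13010000. For the HoxB length, where the margin was smallest, the highest values elsewhere were 56.1% and 54.8%, against 59.4% and 57.8% in HoxB. The mean of all windows was near 1.36% in replicate 1 and 1.57% in replicate 2. With each peak set to 500 bp around its midpoint, an alternative added after the data were seen, this held in 0 of the 8 combinations. These are descriptions of 2 libraries, since overlapping windows are not replicates.

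**Figure D3:**
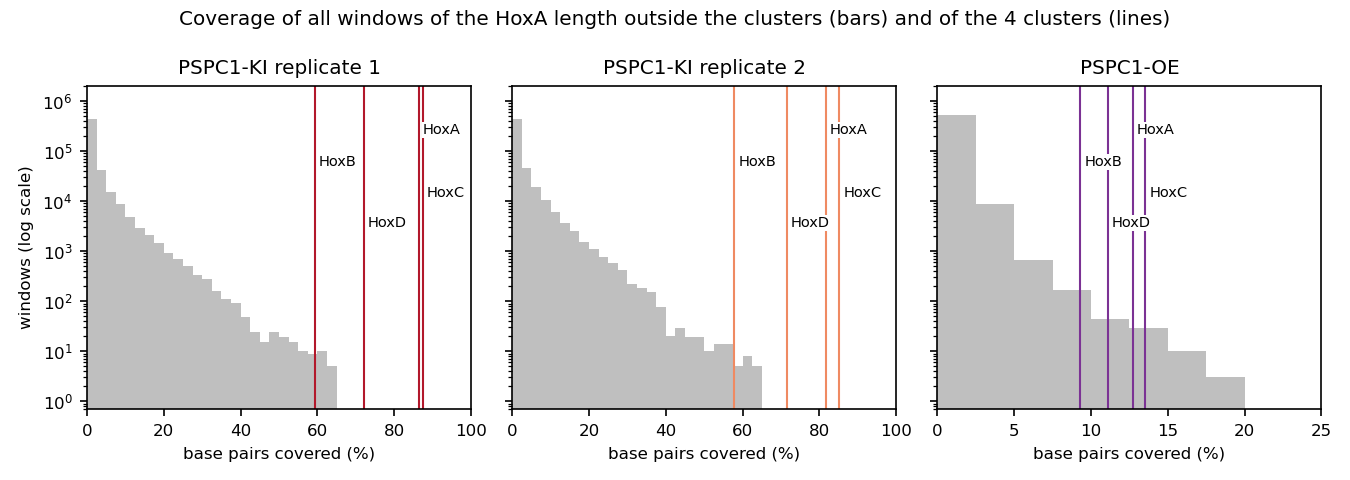
Number of windows of the HoxA length (135 kb, every 5 kb outside the clusters, log scale) by the percentage of base pairs covered, for the 2 knock-in lists and overexpressed PSPC1, whose axis ends at 25%. Lines mark the 4 clusters. HoxB, which is longer, lies within the bars of the HoxA length in both knock-in lists but above every window of its own length, where the highest values were 56.1% and 54.8%.

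The number of knock-in peaks in the Hox windows was less extreme than the base pairs they covered. HoxA held 10 and 12 knock-in peaks, HoxB 10 and 14, HoxC 12 and 18, and HoxD 13 and 11. Of the windows elsewhere, 1.06% held at least 10 peaks at the HoxA length in replicate 1 and 0.844% held at least 12 in replicate 2. The corresponding shares were 2.24% and 1.38% for HoxB, 0.613% and 0.152% for HoxC, and 0.429% and 0.926% for HoxD. The median Hox peak was 4874 bp wide in replicate 1 and 3812 bp in replicate 2, against 1500 bp and 1419 bp over the whole lists.

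The widest knock-in peaks of the genome lay in these clusters. In replicate 1 the first 3 by width were chr11:96140209-96219117 in HoxB (78909 bp), chr6:52146628-52206365 in HoxA (59738 bp) and chr15:102777668-102818906 in HoxC (41239 bp). In replicate 2 the first 2 were chr6:52146253-52204885 in HoxA (58633 bp) and chr11:96140271-96183704 in HoxB (43434 bp). The widest HoxC peak had rank 4 there, at chr15:102818610-102848220 (29611 bp). The widest HoxD peak ranked lower, at 12 in replicate 1 (chr2:74509717-74532986, 23270 bp) and 25 in replicate 2 (chr2:74504446-74523507, 19062 bp). In each replicate 4 of the 10 widest peaks were Hox peaks. Peaks of at least 10 kb numbered 11 of 45 Hox peaks in replicate 1, where they made up 0.867% of the list, and 13 of 55 in replicate 2, where they made up 0.667%.

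Where one peak ended was less stable than what was covered. The HoxB peak of 78909 bp in replicate 1 was split in replicate 2 into peaks that included chr11:96140271-96183704 and chr11:96196757-96218529. The wide HoxA peak kept nearly the same ends in both. Base pairs covered in both replicates made up 90.8% of those covered in either for HoxA, 90.6% for HoxB, 90.1% for HoxC and 91.5% for HoxD. Over chromosomes 1 to 19 and X that share was 39.0%. Of the 45 Hox peaks of replicate 1, 43 overlapped a peak of replicate 2 (95.6%), against 58.8% of all its peaks. Of the 55 of replicate 2, 51 overlapped a peak of replicate 1 (92.7%), against 48.3%. Wide peaks overlap more easily. When each peak was cut to 500 bp around its midpoint, 50.0% of the replicate 1 Hox peaks were shared, against 44.3% of all replicate 1 peaks.

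The deposited score is the authors' own value per peak, has no stated unit and was read only within a list. Hox peaks had a median score of 1143 in knock-in replicate 1 and 727 in replicate 2, against 52.6 and 53.6 over the lists. A score of at least 3100, where the values pile up, was held by 15 of 45 Hox peaks in replicate 1 (33.3%, against 1.7% of the list) and by 18 of 55 in replicate 2 (32.7%, against 1.22%). HoxD was highest, with a median of 3100 in both. The widest HoxA peak did not have the highest score of its cluster, with 406.65 in replicate 1 and 327.9 in replicate 2. Another HoxA peak toward the Hoxa2 end, chr6:52105125-52132345 in replicate 1 (27221 bp), scored 3100, and narrower peaks lay between them.

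Within the clusters the coverage was uneven. Each window was divided at its midpoint into a side toward either end of the gene order. HoxB was covered over 33.2% and 32.4% on the Hoxb13 side (replicates 1 and 2) and over 85.6% and 83.3% on the Hoxb1 side. The longest Hox stretch without a knock-in peak in either library was chr11:96068092-96109575 in HoxB (41.5 kb). In the RefSeq order Hoxb13 and Hoxb9, both trunk and tail genes, are the pair of neighbours with the widest gap among the 34 pairs of the 38 genes. Whether the uncovered stretch lies between them was not tested, because the builds differ. HoxD showed the opposite slope, with 85.6% and 84.9% on the Hoxd13 side and 58.7% and 58.1% on the Hoxd1 side. Its last 12.4 kb, chr2:74602630-74615000, were free of knock-in peaks in both libraries. HoxA was covered over 79.7% and 73.2% on the Hoxa2 side and 93.4% and 90.1% on the Hoxa13 side. In HoxC the sides differed by less, with 86.0% and 84.4% toward Hoxc13 and 89.0% and 86.1% toward Hoxc4. The window ends are those of the rule and not of the genes.

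Overexpressed PSPC1 marked the same clusters with many narrow peaks. It had 76 Hox peaks, of which 19 lay in HoxA, 20 in HoxB, 19 in HoxC and 18 in HoxD. They covered 12.7% of HoxA, 9.31% of HoxB, 13.5% of HoxC and 11.1% of HoxD. The flanks were covered over 0.843% and the 4 windows together over 11.4%, a 13.5-fold difference in 1 library. Elsewhere in the genome 0.00607% of the windows were as covered as HoxA, 0.016% as HoxB, 0.00493% as HoxC and 0.0112% as HoxD. Windows with at least as many peaks made up 0.0038% for HoxA, 0.0283% for HoxB, 0.00342% for HoxC and 0.00417% for HoxD. The Hox peaks had a median width of 697 bp against 326 bp over the list. The highest scoring were chr15:102784689-102787760 in HoxC (score 1222.38, rank 99 of 22785) and chr2:74519424-74521983 in HoxD (score 1210.25, rank 103). Counted by midpoints, overexpressed PSPC1 had 12.9 peaks per 100 kb of Hox window, against 7.46 and 8.98 in the knock-in lists.

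All 76 Hox peaks of overexpressed PSPC1 overlapped a knock-in peak, in each replicate. Over the whole list 40.6% overlapped replicate 1 and 49.3% replicate 2. Of the 67229 bp they covered, 99.8% lay in base pairs covered in both knock-in libraries. Those base pairs made up 69.8% of the windows, so most positions inside the clusters would overlap a knock-in peak. Of the 76 Hox peaks of overexpressed PSPC1, 27 overlapped a UTP6 peak (35.5%, Wilson 95% interval 25.7 to 46.7), against 78.8% of the whole list. In the other direction 23 of 31 UTP6 Hox peaks overlapped overexpressed PSPC1 (74.2%, Wilson 95% interval 56.8 to 86.3), against 39.0% of all UTP6 peaks. The intervals cover counting error only, and no test was made of these shares. In the windows overexpressed PSPC1 coverage was 31.9-fold its genome level and UTP6 coverage 4.29-fold, and the shares were not adjusted for this.

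UTP6, with the longest list, was the only other protein with more than 8 Hox peaks. Its 31 peaks covered 6.55% of HoxA, 7.33% of HoxB, 7.71% of HoxC and 9.20% of HoxD. The flanks differed more than the windows, with 1.91% around HoxA, 5.37% around HoxB, 5.21% around HoxC and 0.856% around HoxD. Elsewhere 5.13% of windows were as covered as HoxA, 3.36% as HoxB, 3.39% as HoxC and 1.99% as HoxD. UTP6 peaks were uneven along HoxA, where 12.0% of the Hoxa2 side and 1.12% of the Hoxa13 side were covered. Overexpressed PSPC1 covered 9.44% and 16.0% of these sides. The median UTP6 Hox peak scored 95.2, below the 111 of its list.

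hnRNPU had 8 Hox peaks, 3 in HoxA, 2 in HoxB, 2 in HoxC and 1 in HoxD. They covered 2.15% of the windows against 0.457% of the flanks, and 1.85% of windows elsewhere were as covered as HoxA, 2.34% as HoxB, 2.99% as HoxC and 14.7% as HoxD. Its widest was chr11:96131017-96135055 in HoxB (4039 bp, width rank 65 of 10279). UTP3 had 6 Hox peaks and none in HoxD, and covered 1.03% of the windows and 1.13% of the flanks. Elsewhere 24.4% of windows were as covered as HoxA, 10.5% as HoxB and 14.5% as HoxC. CIRH1A had 5 Hox peaks and none in HoxC, with 0.627% of the windows and 0.806% of the flanks covered. Its 3 HoxA peaks were the exception, since 5.05% of windows elsewhere were as covered as HoxA, against 31.6% for HoxB and 23.4% for HoxD. SAFB and SAFB2 had 1 Hox peak each, both in HoxB, where 11.8% and 11.3% of windows elsewhere were as covered.

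For the clusters in which a list had no peak, most windows of the same length elsewhere held none either. At the HoxD length 41.1% of windows elsewhere held a UTP3 peak, and at the HoxC length 30.4% held a CIRH1A peak. For SAFB, absent from HoxA, HoxC and HoxD, the shares of windows with a peak were 38.6%, 37.6% and 36.5%. For SAFB2, absent from the same clusters, they were 26.8%, 26% and 25.2%.

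**Figure D4:**
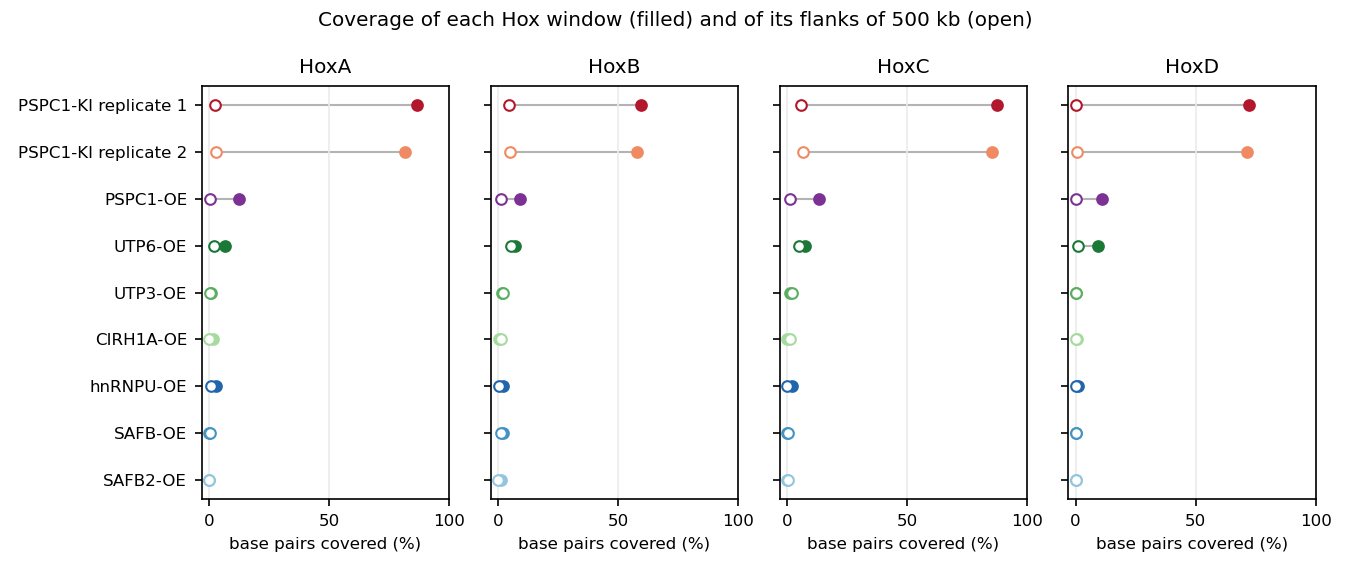
Percentage of base pairs covered in each Hox window (filled) and in its 2 flanks of 500 kb (open), 1 row per library. Both knock-in rows lie between 57.8% and 87.5% in the windows and at most 6.73% in the flanks, overexpressed PSPC1 lies between 9.31% and 13.5%, and the filled and open points of UTP3, CIRH1A, SAFB and SAFB2 lie close together.

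The window minus flank difference was tested over the 8 library groups, the knock-in pair as 1 value, by an exact two-sided sign-flip permutation test with Benjamini-Hochberg adjustment over 5 comparisons. The groups differ in protein, expression or fixation and are not replicates of 1 condition. The windows and lists were also chosen with earlier results of these data known. For both reasons the p-values cannot decide whether a given protein covers the clusters more than their flanks. The mean difference was 10.8 percentage points over the 4 clusters, with a median of 0.98 (above 0 in 6 of 8 groups, exact permutation p = 0.0469, adjusted p = 0.0781). The mean was 12.8 points in HoxA (exact permutation p = 0.0313, adjusted p = 0.0781), 8.23 in HoxB (exact permutation p = 0.0625, adjusted p = 0.0781), 11.7 in HoxC (exact permutation p = 0.164, adjusted p = 0.164) and 11.4 in HoxD (exact permutation p = 0.0625, adjusted p = 0.0781). None passed 0.05 after adjustment. The smallest unadjusted permutation p that 8 groups allow is 0.0078, and it is larger in HoxA and HoxD, where SAFB2 stood at exactly 0. In HoxC 4 groups lay above 0 and 4 below, and the median over groups was 0.85 points. The 4-cluster mean was 2.40 points without the knock-in libraries and 1.04 without all 3 PSPC1 libraries. The knock-in mean itself was 69.8 ± 1.95 points (SD, n = 2). Overexpressed PSPC1 stood at 10.6, UTP6 at 4.29 and hnRNPU at 1.69, while the other 4 groups lay between -0.179 and 0.273. The place of UTP6 above hnRNPU depended on list length. With the same number of highest scoring peaks from every list, UTP6 stood at 0.106, hnRNPU at 1.65 and overexpressed PSPC1 at 7.32. By cluster UTP6 was then at 1.14 in HoxA, 0.909 in HoxB, -1.76 in HoxC and -0.380 in HoxD.

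After peaks of all lists were merged, the windows held 41 regions, of which 19 (46.3%) had peaks in at least 4 lists, against 20.6% of the merged regions of chromosomes 1 to 19 and X. Peaks of 8 lists met in 1 region and of 7 lists in 1 other, and no region had all 9. The region with 8 was chr11:96129982-96139949 in HoxB, with peaks in every list but CIRH1A. The region with 7 was chr6:52105125-52132345 in HoxA, with every list but SAFB and SAFB2. Because knock-in peaks are wide, they join sites that lie apart. Without the knock-in lists, a choice made after the values were seen, the windows held 80 regions. Of these, 49 had peaks in 1 list, 24 in 2 and 5 in 3. Peaks of at least 2 lists met in 31 of the 80 (38.8%), against 47.8% of the regions merged in the same way over chromosomes 1 to 19 and X. Regions were named here for having the most lists, and the shares of regions elsewhere with 5 to 8 lists are not given. The region with the most was chr11:96129982-96135055 in HoxB, shared by 6 lists. It held the only Hox peak of SAFB (chr11:96129982-96134446, score 140.07, rank 1233) and of SAFB2 (chr11:96130485-96132762, score 68.79, rank 3086), and the widest Hox peak of hnRNPU (score 141.75). Overexpressed PSPC1 peaked there with a score of 366.37, UTP6 with 180.78 and UTP3 with 58.91. The next was chr6:52107615-52109516 in HoxA, shared by 5 lists: overexpressed PSPC1 (156.74), UTP6 (268.07), UTP3 (54.12), CIRH1A (59.95) and hnRNPU (56.66). Scores are not comparable between lists. Near the Hoxd1 end of HoxD, chr2:74600556-74601711 held peaks of overexpressed PSPC1, UTP6 and hnRNPU, with a knock-in peak in both libraries and uncovered sequence on either side.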

How the data were processed

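ChIP-seq peak lists of 9 libraries were read as deposited. Each holds a chromosome, start, end, MACS peak name and score. The score column was made by the authors and has no stated unit. The submitters' processing notes name mm9, CASAVA, Bowtie2 and TopHat without role or version. The caller's version, threshold and control are not given in the sources used here. One list was deposited per library. The lowest score is 30 in the knock-in lists and about 50 in the others. Depth is unknown, so no interval based on depth is given. Starts were raised by 1.

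The 4 windows, member genes and lists were chosen with earlier results of these data known. Overlap means at least 1 shared bp. Coverage counts base pairs under any peak. Circular shifts named in the rule were replaced by all same-length windows every 5 kb. Named items were the 38 genes, the widest and highest scoring peak per cluster and list, and up to 3 merged regions per cluster; other peaks were picked after their values were seen. A planned assignment of peaks to promoters was not made for lack of an mm9 annotation. The test was tried on simulated data. Alternatives covered score minimum, list length, flank size, peak width, window size and libraries left out. Scripts ran in Python 3.11.15 with pandas 2.3.3 and numpy 2.4.6, and figures were drawn with matplotlib 3.10.9. The other 49 samples were not analysed here.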

Additional observations from a re-analysis of the deposited data

Results flagged for a closer look

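In both knock-in libraries every Hox window was covered more than its flanks, while in 4 overexpression libraries the sign was the opposite for some windows. Each of these has 1 library, and the difference between the groups was not tested. Many of these windows held no peak of the list, so that any flank peak gives a negative value. They were HoxA, HoxC and HoxD for SAFB, HoxC for SAFB2 and CIRH1A, and HoxD for UTP3. The UTP3 value in HoxD and the SAFB2 value in HoxC rest on 1 flank peak each. Window minus flank coverage over the 4 clusters was -0.0970 percentage points for UTP3 and -0.179 for CIRH1A, against 71.2 and 68.4 in the knock-in replicates. In HoxA it was -0.251 for SAFB, against 84.0 and 78.9. In HoxB it was -0.463 for UTP3 and -1.17 for CIRH1A, against 54.6 and 52.9. In HoxC it was -0.636 for UTP3, -1.37 for CIRH1A, -0.470 for SAFB and -0.368 for SAFB2, against 81.6 and 78.5. In HoxD it was -0.0605 for UTP3 and -0.197 for SAFB, against 72.0 and 70.8.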

How the results depend on the processing

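The mean window minus flank difference over groups, which the knock-in value dominates, kept its direction in all 5 comparisons under all 13 alternatives, 2 of which (leaving out both knock-in or all 3 PSPC1 libraries) were added after the data were seen. The HoxC median, 0.85 points, turned to -0.10 with equal list lengths, to -0.37 without the knock-in libraries (3 groups above 0, 4 below) and to -0.42 without the PSPC1 libraries (2 above, 4 below). Adjusted p ranged from 0.0391 to 0.3125 (0.0820 to 0.656 for HoxC). Counting the 9 lists as separate values, which treats the knock-in pair as independent, gave differences that passed 0.05: 17.4 points for the 4 clusters, 20.4 for HoxA, 13.3 for HoxB and 18.1 for HoxD. So did replacing the flanks by the mean of all same-length windows of the chromosome for the 4 clusters (11.4 points) and HoxB (9.34), where the cause was not tested. Leaving out 1 knock-in replicate gave 10.7 to 11.0 points for the 4 clusters, 12.5 to 13.1 for HoxA, 8.12 to 8.34 for HoxB, 11.5 to 11.9 for HoxC and 11.4 to 11.5 for HoxD. Without both knock-in libraries the difference was 2.97 in HoxA, 1.72 in HoxB, 1.98 in HoxC and 2.87 in HoxD.

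The share of replicate 1 Hox peaks found in replicate 2 fell from 95.6% to 71.1% when the overlap had to be 50% of both peaks. Over all replicate 1 peaks it was then 49.7%. With 500 bp peaks, which removes their width, the Hox share fell to 50.0%, near the 44.3% of all replicate 1 peaks. With 500 bp peaks the knock-in coverage of a cluster exceeded every same-length window in 0 of 8 combinations of cluster and library, and in 8 of 8 under the other 3 alternatives, all added after the data were seen. The knock-in lists then covered 3.73% and 4.47% of the Hox windows and overexpressed PSPC1 6.44%. No paired analysis was possible because only the knock-in group has 2 libraries. Peak lists hold no depth, and scores of different lists were not compared.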
